A study of Mus musculus with 9 samples.

Results

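Mouse pancreatic islets carry genes for 2 forms of the proteasome, and the 44 genes described here are those of the proteasome core, its regulatory and activator particles, its maturation factor Pomp and the loading of peptides onto MHC class I molecules. They were taken by symbol from a deposited table of 56748 genes, in which each of these symbols occurs once, and all 44 passed the filter on low counts that left 17276 genes for testing. The study sequenced total RNA of primary pancreatic islets of C57bl/6 mice of wt genotype, in 3 libraries for each of 3 groups. Particle islets received polydopamine-coated mesoporous silica nanoparticles (PD-G-MSNPs) and, over 48 hours, an inflammatory mix of IL-1beta, TNF-alpha and IL-6, inflamed islets received that mix alone, and control islets were untreated. No library of islets with particles alone was analysed here, so an effect of the particles can be read only under cytokines. The sources used here give no time in culture for control islets. In comparisons with control, culture time and treatment therefore cannot be told apart. Age, sex and the number of mice behind a library are not given in the sources used here, and nothing says that the 3 libraries of a group came from separate animals, so the p-values measure the spread between these libraries, which may be technical.

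The proteasome degrades proteins tagged with ubiquitin. Its core is a barrel of alpha and beta subunits, of which Psmb5, Psmb6 and Psmb7 carry the constitutive active sites. Interferons and other inflammatory cytokines are known to induce Psmb8, Psmb9 and Psmb10, which take the places of Psmb5, Psmb6 and Psmb7 in newly assembled immunoproteasomes and shift the cuts towards peptides that fit MHC class I. Psme1 and Psme2 form the activator PA28, Tap1 and Tap2 the pump that moves peptides into the endoplasmic reticulum, Tapbp (tapasin) and Tapbpl (TAPBPR) help to load and edit them, and Erap1 trims them there. In type 1 diabetes, beta cells that display more MHC class I are a known feature of inflamed islets.

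Promoter windows from RefSeq (GRCm38.p6, from 250 bases before to 50 bases after an annotated start) were found for 36 of the 44 genes, and those below carry the layout or the letters the results refer back to. Tap1 and Psmb9 are transcribed away from each other, and their windows share 275 bases. In the Tap1 window (chr17:34187306-34187605, plus strand) the capitals mark the 227 bases from the Psmb9 start to the Tap1 start, so that a single stretch serves both genes. In the windows of Psme1 (chr14:55578244-55578543, plus strand), Erap1 (chr13:74639603-74639902, plus strand) and Psmd4 (chr3:95042565-95042864, minus strand) the capitals mark the letters of an interferon-stimulated response element. In Psmb8 (chr17:34197945-34198244, plus strand) they mark a gamma-activated sequence. In the constitutive counterparts Psmb5 (chr14:54617946-54618245, minus strand) and Psmb6 (chr11:70525107-70525406, plus strand) they mark an antioxidant response element.
Tap1: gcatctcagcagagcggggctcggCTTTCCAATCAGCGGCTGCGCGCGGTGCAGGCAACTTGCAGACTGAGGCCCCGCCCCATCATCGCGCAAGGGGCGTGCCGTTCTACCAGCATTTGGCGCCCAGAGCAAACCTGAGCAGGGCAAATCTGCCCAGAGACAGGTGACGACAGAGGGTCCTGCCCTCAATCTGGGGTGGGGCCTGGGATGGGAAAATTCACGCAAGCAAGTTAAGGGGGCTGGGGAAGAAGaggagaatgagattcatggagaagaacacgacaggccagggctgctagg
Psme1: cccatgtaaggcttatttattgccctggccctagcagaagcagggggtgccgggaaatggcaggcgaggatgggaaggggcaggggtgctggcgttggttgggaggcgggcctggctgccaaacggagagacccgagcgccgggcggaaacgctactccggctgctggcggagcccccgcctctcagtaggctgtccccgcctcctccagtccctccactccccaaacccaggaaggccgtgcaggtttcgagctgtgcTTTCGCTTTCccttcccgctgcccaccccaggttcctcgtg
Erap1: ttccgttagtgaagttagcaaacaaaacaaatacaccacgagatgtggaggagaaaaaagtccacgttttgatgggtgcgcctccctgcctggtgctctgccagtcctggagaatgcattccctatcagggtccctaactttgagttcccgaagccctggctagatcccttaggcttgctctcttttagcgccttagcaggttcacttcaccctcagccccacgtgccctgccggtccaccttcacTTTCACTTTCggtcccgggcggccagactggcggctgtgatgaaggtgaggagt
Psmd4: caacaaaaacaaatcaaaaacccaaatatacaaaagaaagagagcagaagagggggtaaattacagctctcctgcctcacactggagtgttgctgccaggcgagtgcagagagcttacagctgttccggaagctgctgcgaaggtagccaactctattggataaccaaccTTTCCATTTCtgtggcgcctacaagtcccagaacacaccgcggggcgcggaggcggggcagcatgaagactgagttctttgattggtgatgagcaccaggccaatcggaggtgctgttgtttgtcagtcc
Psmb8: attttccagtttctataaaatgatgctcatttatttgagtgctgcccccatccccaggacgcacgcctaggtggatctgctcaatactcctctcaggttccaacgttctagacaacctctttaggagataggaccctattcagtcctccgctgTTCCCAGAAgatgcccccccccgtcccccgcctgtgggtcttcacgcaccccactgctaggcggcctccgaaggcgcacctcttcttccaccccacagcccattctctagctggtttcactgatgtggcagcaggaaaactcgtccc
Psmb5: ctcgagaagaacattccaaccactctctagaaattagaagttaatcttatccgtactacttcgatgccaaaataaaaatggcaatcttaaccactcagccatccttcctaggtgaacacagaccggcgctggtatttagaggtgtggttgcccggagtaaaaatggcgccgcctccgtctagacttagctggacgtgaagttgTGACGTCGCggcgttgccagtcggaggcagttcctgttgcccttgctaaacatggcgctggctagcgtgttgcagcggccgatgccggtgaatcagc
Psmb6: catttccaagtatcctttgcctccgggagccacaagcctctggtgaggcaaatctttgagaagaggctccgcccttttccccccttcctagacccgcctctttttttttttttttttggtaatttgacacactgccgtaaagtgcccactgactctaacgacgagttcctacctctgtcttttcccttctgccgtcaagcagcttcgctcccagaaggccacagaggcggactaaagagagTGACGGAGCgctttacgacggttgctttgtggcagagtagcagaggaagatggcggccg

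Each motif was searched on both strands as fixed letters, and no match of one motif overlapped a match of another in these genes. GAAANNGAAA, the interferon-stimulated response element, was in the windows of 1 of 5 inducible subunits (Psme1), 1 of 3 loading genes with a window (Erap1) and 2 of 25 constitutive subunits (Psmb3 and Psmd4), against 3.44% of all 32851 windows. TTCNNNGAA, the gamma-activated sequence, was in 1 of 5 inducible subunits (Psmb8), 0 of 3 loading genes and 1 of 25 constitutive subunits (Psmd2), against 8.3% of all windows. TGACNNNGC, the antioxidant response element, was in 0 of 5 inducible, 0 of 3 loading and 4 of 25 constitutive windows (Psmb5, Psmb6, Psmc6 and Psmd12), and also in that of Psme4, against 12.4% of all windows. The NF-kB consensus was in 0 of 5, 0 of 3 and 5 of 25 windows (Psma6, Psma7, Psmd11, Psmd12 and Psmd13), and also in that of Psme4, against 8.46%. These matches describe the letters of short windows and are not binding sites.

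Total counts per library ranged from 17832949 to 55865759. The tissue label was checked against 7 beta cell markers, whose summed expression was 87260 to 239300 CPM (counts scaled to a common library size with TMM factors) in particle, 123400 to 228900 CPM in inflamed and 340300 to 358600 CPM in control islets. The 5 alpha cell markers summed to 431, 7920 and 78.2 CPM in particle, 74.4 to 443 CPM in inflamed and 7439 to 27450 CPM in control islets, and all 5 were called lower in inflamed than in control islets. Particle replicate 2 was thus near the control libraries in alpha cell markers. Of the 7 beta cell markers 6 were called lower in inflamed than in control islets, and Ins2, most of each sum, was not called. Particle replicate 2 was the highest particle library for each of these 7, though below every control library. Mafa, for instance, was at 1263 CPM there, against 74.5 and 50.7 CPM in particle replicates 1 and 3. The 7 acinar markers summed to 5.76, 2977 and 219.5 CPM in particle islets and reached 2651 CPM in inflamed replicate 3 and 1236 CPM in control replicate 2. Macrophages contain immunoproteasomes without stimulation, and their 9 markers summed to 216 to 348 CPM in particle, 626 to 726 CPM in inflamed and 229 to 271 CPM in control islets. Of these 9 markers 7 were called higher in inflamed than in control islets, and Mrc1 was too low to test. C1qa went the other way and was not called (log2 fold change -0.36). The similar sums of particle and control islets hide opposite changes. In particle over control islets Cd68 was called higher (log2 fold change 2.80), C1qa was called lower (-1.51) and 6 markers were not called. The 5 dendritic cell markers summed to 10.4 to 17.97 CPM in particle, 24.5 to 73.5 CPM in inflamed and 6.60 to 12.2 CPM in control islets. All 3 tested markers were called higher in inflamed than in control islets, and Xcr1 was at 0 counts in every library. Most of the inflamed sum was Itgax, at 41.0, 66.6 and 19.3 CPM. Clec9a, at 2.14, 2.66 and 0 CPM in inflamed islets, overlapped the control libraries. Of all genes tested, 20.7% were called higher and 19% lower in inflamed over control islets. The shares for particle over control islets were 11.4% and 5.92%. Lymphocyte markers summed to 2.02 to 8.02 CPM in cytokine-treated and 7.27 to 34.5 CPM in control libraries, with 3 of 9 at 0 counts in every library. In whole islets, fewer cells of a type and less RNA per cell cannot be told apart.

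The first comparison asked which proteasome and loading genes differed in inflamed from control islets. The 5 inducible subunits and the 5 loading genes all rose, by 5.46-fold to 35.0-fold, and 22 of 31 constitutive subunits rose as well, by 3.92-fold at most. Across all genes tested 20.7% were called higher and 19% lower (edgeR's quasi-likelihood test, Benjamini-Hochberg adjusted p under 0.05). The median log2 fold change was 3.52 for the inducible subunits, 3.13 for the loading genes, 0.75 for the constitutive subunits and 0.05 for all genes tested.

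Psmb8, the inducible counterpart of Psmb5 (ENSMUSG00000024338, GRCm39 chromosome 17, 34416695 to 34420428), was at 557, 297 and 427 CPM in the inflamed libraries, against 22.3, 13.1 and 21.0 CPM in the control libraries. The lowest inflamed library lay far above the highest control library. The log2 fold change was 4.51 (SE 0.33, adjusted p = 6.50e-06). Psmb9, the counterpart of Psmb6 (ENSMUSG00000096727, chromosome 17, 34400961 to 34406738), was at 389, 283 and 347 CPM in inflamed islets, against 22.9, 11.8 and 15.0 CPM in control islets. Its log2 fold change was 4.36 (SE 0.32, adjusted p = 6.20e-06), close to that of Psmb8. Psmb10, the counterpart of Psmb7 (ENSMUSG00000031897, chromosome 8, 106662367 to 106665076), was at 418, 270 and 373 CPM in inflamed islets, against 38.9, 24.6 and 36.5 CPM in control islets (log2 fold change 3.41, SE 0.33, adjusted p = 3.86e-05). Its fold was the smallest of the 3 inducible catalytic subunits, with no overlap of the groups.

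Both subunits of the activator PA28 rose together. Psme1, whose window above holds the interferon-stimulated response element just past the start (ENSMUSG00000022216, chromosome 14, 55815580 to 55818986), was at 609.5, 463 and 629 CPM in inflamed islets, against 79.7, 45.9 and 73.1 CPM in control islets (log2 fold change 3.10, SE 0.29). Psme2, its partner in the same ring (ENSMUSG00000079197, chromosome 14, 55824898 to 55828570), was at 766, 406 and 703 CPM in inflamed islets, against 57.8, 43.1 and 62.3 CPM in control islets (log2 fold change 3.52, SE 0.30). The adjusted p-values were 3.05e-05 for Psme1 and 2.00e-05 for Psme2 (edgeR). A near copy, Psme2b on chromosome 11, was counted at 236 CPM in inflamed and 23.6 CPM in control islets on average, so the split of reads between Psme2 and Psme2b is uncertain.

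The loading genes held the largest change of the 44. Tap1, the first chain of the peptide transporter (ENSMUSG00000037321, chromosome 17, 34406527 to 34416199), was at 974, 885 and 825 CPM in inflamed islets, against 31.0, 18.1 and 27.5 CPM in control islets, or 35.0-fold higher (log2 5.13, SE 0.34, adjusted p = 3.46e-06). Tap2, the second chain (ENSMUSG00000024339, chromosome 17, 34422501 to 34435295), was at 406, 277 and 292 CPM in inflamed islets, against 43.7, 26.5 and 40.7 CPM in control islets, or 8.78-fold higher (log2 3.13, SE 0.30, adjusted p = 3.56e-05). Both chains of this dimer rose, Tap1 by the larger factor. Tapbp, the tapasin bridge between transporter and class I molecule, was at 1724, 1638 and 1524 CPM in inflamed islets, against 281, 198 and 254 CPM in control islets (log2 fold change 2.74, SE 0.29). Tapbpl, the peptide editor, was at 638, 546 and 498 CPM in inflamed islets, against 46.3, 56.2 and 59.0 CPM in control islets (log2 fold change 3.38, SE 0.26). Erap1, the trimming peptidase, was at 158, 153 and 150.2 CPM in inflamed islets, against 30.2, 28.3 and 25.9 CPM in control islets (log2 fold change 2.45, SE 0.27). The change of Erap1 was the smallest among the 10 inducible and loading genes, and its libraries agreed most closely within the inflamed and within the control group. The adjusted p-values were 8.46e-05 for Tapbp, 9.21e-06 for Tapbpl and 9.75e-05 for Erap1 (edgeR). Of the 44 genes, 38 had every inflamed library above every control library and 1 had every inflamed library below, while 28.3% and 28.5% of all genes tested did so.

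**Figure D1:**
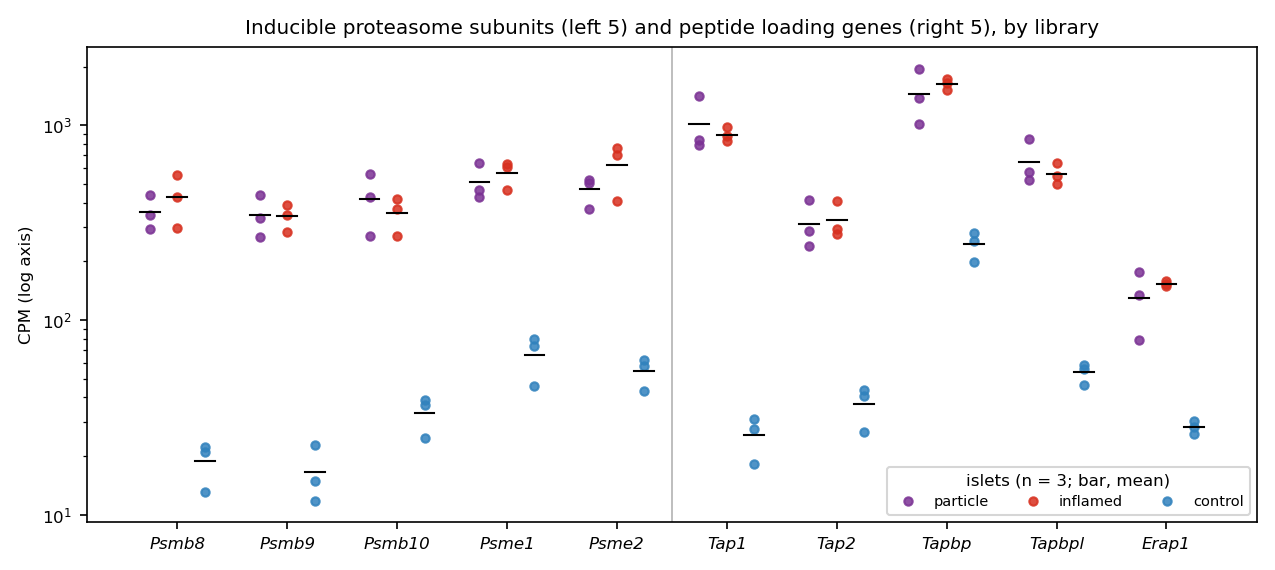
CPM (log axis) of the 5 inducible subunits and 5 peptide loading genes in each library of particle, inflamed and control islets; points are libraries and bars are means of 3. Every cytokine-treated library lies above every control library for all 10 genes, and particle and inflamed libraries overlap.

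Psmb9, Tap1, Psmb8 and Tap2 lie side by side in the MHC region of chromosome 17, within 34335 bases from 34400961 to 34435295 (GRCm39). The deposited table lists 6 genes inside that stretch, 5 of them were tested, and all 5 were called higher in inflamed islets. Of all genes tested 20.7% were called higher. The 4 genes just named are among these 5, so the count is not separate from their own calls. The other tested gene, the long noncoding RNA Gm15821, lies opposite Tap2 and was counted at 1.20% of its mean level. In the deposited GRCm39 coordinates the Psmb9 and Tap1 genes overlap at their 5' ends on opposite strands, whereas the RefSeq starts used for the windows above lie 227 bases apart. The sources used here do not say whether counting used the strand. At the mean over all libraries, Tap1 had 645 CPM and Psmb9 234 CPM, so reads of the overlap could move either value. Erap1 also overlaps an expressed gene on the other strand, Cast, which was counted at 29.3% of its mean level.

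Read per length, transcripts of each inducible subunit were set against those of its constitutive counterpart as a ratio of FPKM (counts per kilobase of gene length on a common library scale) within each library. Psmb8 over Psmb5 was 1.31, 1.05 and 1.08 in inflamed islets, against 0.0664, 0.0478 and 0.0605 in control islets. Psmb9 over Psmb6 was 0.92, 1.309 and 0.892 in inflamed islets, against 0.102, 0.0698 and 0.0652 in control islets. Psmb10 over Psmb7 was 12.9, 9.48 and 10.1 in inflamed islets, against 1.42, 0.958 and 1.37 in control islets. The inducible transcript thus rose to about the level of its counterpart in the first 2 pairs, and in the third it was near the counterpart already in control islets and far above it in inflamed islets. The level of a ratio depends on the deposited gene lengths, and its change does not. The changes were 19.8-fold, 13.2-fold and 8.71-fold. For each pair the exact two-sided permutation p was 0.1, the smallest that 3 against 3 libraries allow, and 0.15 after adjustment over 9 ratio tests.

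**Figure D2:**
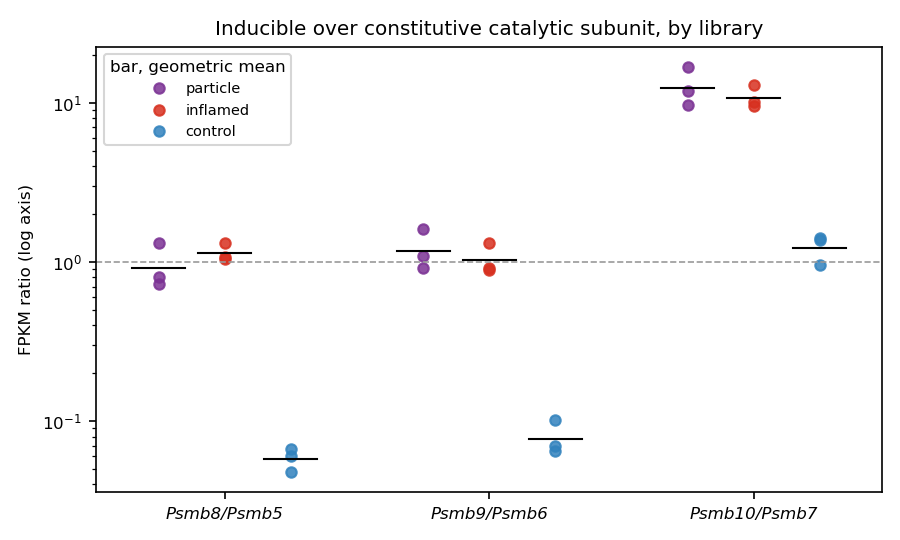
Ratio of FPKM (log axis) of each inducible catalytic subunit to the constitutive subunit whose place it takes, in each library of particle, inflamed and control islets; bars are geometric means of 3 and the dashed line marks equal FPKM. The Psmb8/Psmb5 geometric mean is 0.916 in particle, 1.14 in inflamed and 0.0577 in control islets.

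Of the constitutive active-site subunits, Psmb5 and Psmb7 were not called and Psmb6 was called higher. Psmb5 was at 113, 75.2 and 105 CPM in inflamed islets, against 89.1, 72.7 and 92.2 CPM in control islets. These ranges overlap, and the log2 fold change of 0.21 (SE 0.22) was not called (adjusted p = 0.467). Psmb7 was at 65.1, 57.1 and 74.1 CPM in inflamed islets, against 54.8, 51.5 and 53.6 CPM in control islets, and was not called although the groups do not overlap (log2 fold change 0.30, SE 0.18, adjusted p = 0.201). Psmb6 was at 216, 111 and 199 CPM in inflamed islets, against 115, 86.3 and 117 CPM in control islets (log2 fold change 0.72, SE 0.25, adjusted p = 0.0408). That call rested on a narrow margin and was lost under 11 of 19 alternatives, among them the omission of any 1 library other than inflamed replicate 2, with adjusted p-values of Psmb6 up to 0.157. Of the other beta subunits, which carry no active site, only Psmb4 was called, at 273, 221 and 341 CPM in inflamed islets, against 173, 140.0 and 177 CPM in control islets (log2 fold change 0.77, adjusted p = 0.0147). The call was lost without control replicate 2 or inflamed replicate 3 (adjusted p of Psmb4 up to 0.0722). Psmb2 was at 76.9, 83.3 and 102 CPM in inflamed islets, against 72.5, 57.7 and 67.7 CPM in control islets, with a log2 fold change of 0.41 that was not called. Psmb1 and Psmb3, at 0.47 each, were not called either.

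The alpha ring, which gates entry into the core, rose as a whole. All 7 subunits were called, with log2 fold changes from 0.74 for Psma5 to 1.504 for Psma6. Psma6 was at 185, 228 and 261 CPM in inflamed islets, against 93.3, 64.7 and 79.4 CPM in control islets (SE 0.22, adjusted p = 6.40e-04). Psma7 was at 325, 279 and 391 CPM in inflamed islets, against 133, 99.6 and 124 CPM in control islets (log2 fold change 1.48, SE 0.21, adjusted p = 4.59e-04). The groups do not overlap for either gene. Psma5 was at 75.8, 75.0 and 100.5 CPM in inflamed islets, against 48.2, 50.8 and 51.8 CPM in control islets (adjusted p = 0.0212). It lost its call without any 1 of the 3 control libraries or inflamed replicate 3 (adjusted p of Psma5 up to 0.0995). Psma2, Psma3, Psmb7, Psmc3 and Psmd13 overlap other genes counted at 5% or more of their own level, so their counts are uncertain in part.

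The regulatory particle, which recognises and unfolds tagged proteins, was mixed. All 6 ATPases of its base rose, from 0.62 for Psmc3 to 1.14 for Psmc6 on the log2 scale. Psmc6 was at 86.0, 113 and 121 CPM in inflamed islets, against 50.9, 48.8 and 46.1 CPM in control islets (SE 0.23, adjusted p = 0.00291). Psmc2 was at 200.4, 222 and 268 CPM in inflamed islets, against 118, 104 and 113 CPM in control islets (log2 fold change 1.05, adjusted p = 0.00155). Psmc1 was at 203, 180 and 214 CPM in inflamed islets, against 116, 88.8 and 106 CPM in control islets (log2 fold change 0.94, adjusted p = 0.00226). For these 3 ATPases no inflamed library reached down to the control range. Psmc3 was at 116.5, 111 and 128 CPM in inflamed islets, against 78.5, 69.2 and 83.2 CPM in control islets. Psmc3 lost its call under 5 of 19 alternatives, among them the omission of any 1 control library or of inflamed replicate 3, and Psmc4 under 2, among them the omission of control replicate 2 (adjusted p-values up to 0.0749 for Psmc3 and 0.0585 for Psmc4). Outside the ATPases, Psmd4, a ubiquitin receptor, was at 279, 248 and 286 CPM in inflamed islets, against 97.6, 78.6 and 90.8 CPM in control islets (log2 fold change 1.61, SE 0.19, adjusted p = 1.62e-04). The scaffold subunit Psmd1 was at 32.3, 42.2 and 34.6 CPM in inflamed islets, against 38.5, 62.2 and 49.1 CPM in control islets, and was not called (log2 fold change -0.46, adjusted p = 0.144). Psmd2, the other large scaffold, averaged 243 ± 45.8 CPM in inflamed and 183.5 ± 19.7 CPM in control islets (SD, n = 3 each) and was not called either.

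In the lid, 6 of 8 subunits rose, 1 fell and 1 was not called. Psmd8 had the largest change of any constitutive subunit, at 346, 301 and 402 CPM in inflamed islets, against 93.9, 79.9 and 93.9 CPM in control islets (log2 fold change 1.97, SE 0.25, adjusted p = 2.61e-04). Psmd14, the deubiquitinase that removes ubiquitin chains at the entrance, was at 58.0, 66.4 and 75.4 CPM in inflamed islets, against 31.6, 28.0 and 32.7 CPM in control islets (log2 fold change 1.11, SE 0.20, adjusted p = 0.00177). Psmd6 went the other way, at 62.6, 49.4 and 67.4 CPM in inflamed islets, against 80.9, 98.6 and 90.8 CPM in control islets (log2 fold change -0.59, SE 0.19, adjusted p = 0.0273). Psmd6 was the single one of the 44 genes that fell, and it lost its call when any of control replicates 2 and 3 and inflamed replicates 1 and 2 was left out, with a replicate block, and when libraries were scaled by their totals (adjusted p of Psmd6 up to 0.1004). Psmd7, Psmd11, Psmd12 and Psmd13 rose by 0.51 to 0.84 on the log2 scale, and the call of Psmd11 was lost under 14 of 19 alternatives (adjusted p of Psmd11 up to 0.171). Psmd13 lost its call without control replicate 2, without control replicate 3 and without a count filter (adjusted p of Psmd13 up to 0.0632). Psmd3 was not called, at 235.5 ± 14.95 CPM in inflamed and 196 ± 29.7 CPM in control islets.

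Pomp, the chaperone that matures the core and is needed for the insertion of Psmb8, was at 221, 194 and 272 CPM in inflamed islets, against 68.5, 61.4 and 72.9 CPM in control islets (log2 fold change 1.76, SE 0.19, adjusted p = 9.72e-05). Among the other activators, Psme3 (PA28 gamma, nuclear) was at 170, 194 and 181 CPM in inflamed islets, against 104, 76.1 and 103 CPM in control islets (log2 fold change 0.94, SE 0.19, adjusted p = 0.00295). Psme4 (PA200) was at 39.6, 50.4 and 61.7 CPM in inflamed islets, against 44.2, 65.5 and 48.6 CPM in control islets. It was not called, and its small difference (log2 fold change -0.06) changed sign when libraries were scaled by their totals and without control replicate 2 or inflamed replicate 1.

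**Figure D3:**
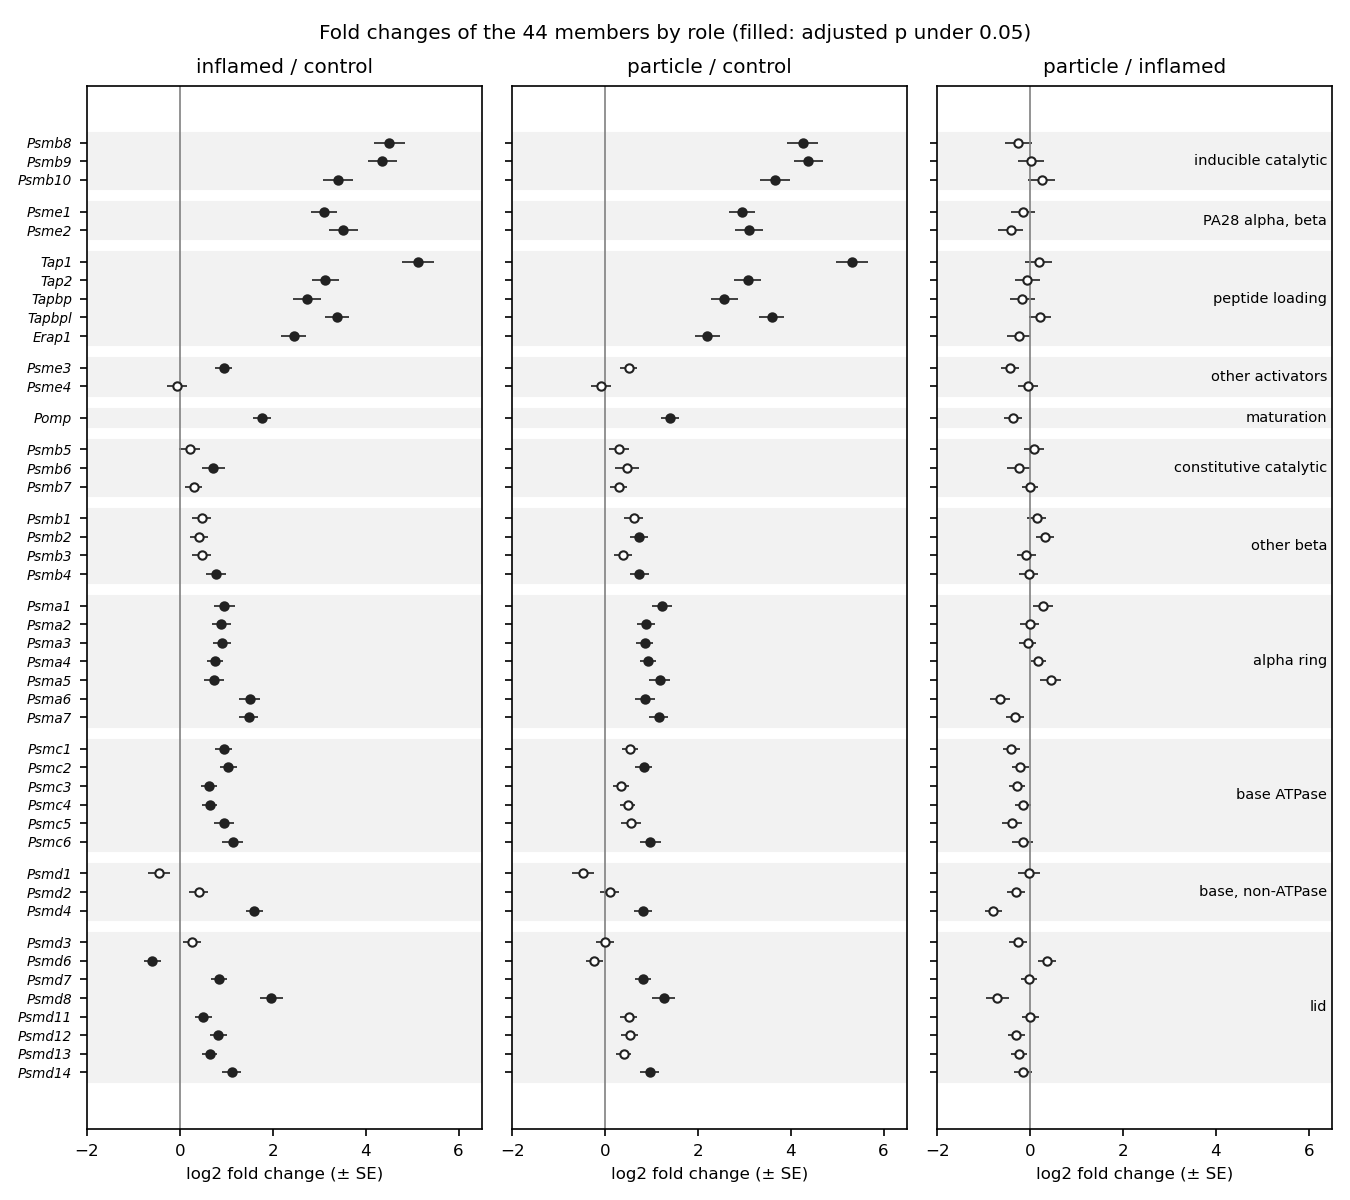
Log2 fold change with SE (edgeR, 3 libraries per group) of all 44 genes ordered by role, for inflamed over control, particle over control and particle over inflamed islets; filled points have an adjusted p under 0.05. The 10 inducible and loading genes lie between 2.204 and 5.31 in both comparisons with control, and no point is filled for particle over inflamed.

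Ranked by mean FPKM among the 44 genes, Psmb8, Tap1 and Psmb9 were at places 10, 8 and 17 in inflamed islets, and at places 41, 42 and 43 in control islets. In control islets the highest FPKM belonged to the base ATPase Psmc5 (95.8) and to Psmb5 (95.0). In inflamed islets it belonged to Tapbp (438) and Psme2 (345). Psmb5 was at place 12 in inflamed and at place 2 in control islets, although its FPKM was 106 against 95.0. All these places depend on the deposited gene lengths, which were 899 bases for Psmb5, 3381 for Psmb8 and 3660 for Psmb9.

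To measure what the particles changed under cytokines, particle islets were compared with inflamed islets. The inducible and loading genes lay in overlapping ranges with and without particles, 23 of 31 constitutive subunits had a negative log2 fold change, and none of the 44 genes was called. Across all genes 0% were called in either direction by edgeR's test, with 2603 of 17276 genes at an unadjusted p under 0.05. DESeq2 called 487 genes higher and 296 lower, limma called 1 and 15 on log2(FPKM + 1) and 5 and 9 on log2(FPKM + 0.1), and edgeR without a count filter called 120 and 101. Without particle replicate 3, edgeR called 636 higher and 306 lower.

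Psmb8 was at 439.5, 345 and 292 CPM in particle islets, against 557, 297 and 427 CPM in inflamed islets. Psmb9 was at 436, 332 and 265 CPM in particle islets, against 389, 283 and 347 CPM in inflamed islets. Psmb10 was at 564, 426 and 270 CPM in particle islets, against 418, 270 and 373 CPM in inflamed islets. The libraries of both groups are interleaved for all 3 subunits. Tap1 was at 1414, 837 and 793 CPM in particle islets, against 974, 885 and 825 CPM in inflamed islets, and particle replicate 1 was the highest of all libraries. Tap2 was at 411.5, 285 and 239 CPM in particle islets, against 406, 277 and 292 CPM in inflamed islets. The Tap2 libraries of both groups overlap in the same way. Psme1 was at 636, 428 and 466 CPM in particle islets, against 609.5, 463 and 629 CPM in inflamed islets. Psme2 was at 507, 372 and 525 CPM in particle islets, against 766, 406 and 703 CPM in inflamed islets, and only particle replicate 2 was below every inflamed library. The PA28 pair thus lay level or somewhat lower with particles, within the spread of the libraries. Tapbp was at 1953, 1385 and 1013 CPM in particle islets, against 1724, 1638 and 1524 CPM in inflamed islets. Tapbpl was at 846, 574 and 521 CPM in particle islets, against 638, 546 and 498 CPM in inflamed islets. Erap1 was at 133.5, 78.8 and 177 CPM in particle islets, against 158, 153 and 150.2 CPM in inflamed islets. Tapbp and Erap1 spread far more widely over the particle libraries than over the inflamed ones. Over the 10 inducible and loading genes the log2 differences ran from -0.42 for Psme2 to 0.25 for Psmb10, with standard errors of 0.24 to 0.30 and adjusted p-values of 0.516 or more. The ratios of Psmb8 over Psmb5 were 1.32, 0.723 and 0.804 in particle islets, those of Psmb9 over Psmb6 were 1.62, 1.08 and 0.914, and those of Psmb10 over Psmb7 were 16.7, 11.8 and 9.68. Psmb5 was at 88.5, 127 and 96.7 CPM in particle islets, Psmb6 at 138, 157 and 149 CPM and Psmb7 at 65.4 ± 8.49 CPM (SD, n = 3), each overlapping the inflamed libraries. The ratios overlap the inflamed ratios given above, with exact two-sided permutation p-values of 0.4, 0.6 and 0.6 (0.514, 0.6 and 0.6 after adjustment).

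Particle replicate 2, in which alpha cell markers were near the control level, did not stand apart in the sum of the inducible subunits. Its 5 inducible subunits summed to 1903 CPM, between the 2582 and 1819 CPM of particle replicates 1 and 3, and the inflamed libraries summed to 2740, 1718 and 2480 CPM. The sum of the macrophage markers, by contrast, was lower in every particle library than in every inflamed library. The part of macrophage, dendritic, alpha and beta cell transcripts in the values of the proteasome genes was not tested.

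**Figure D4:**
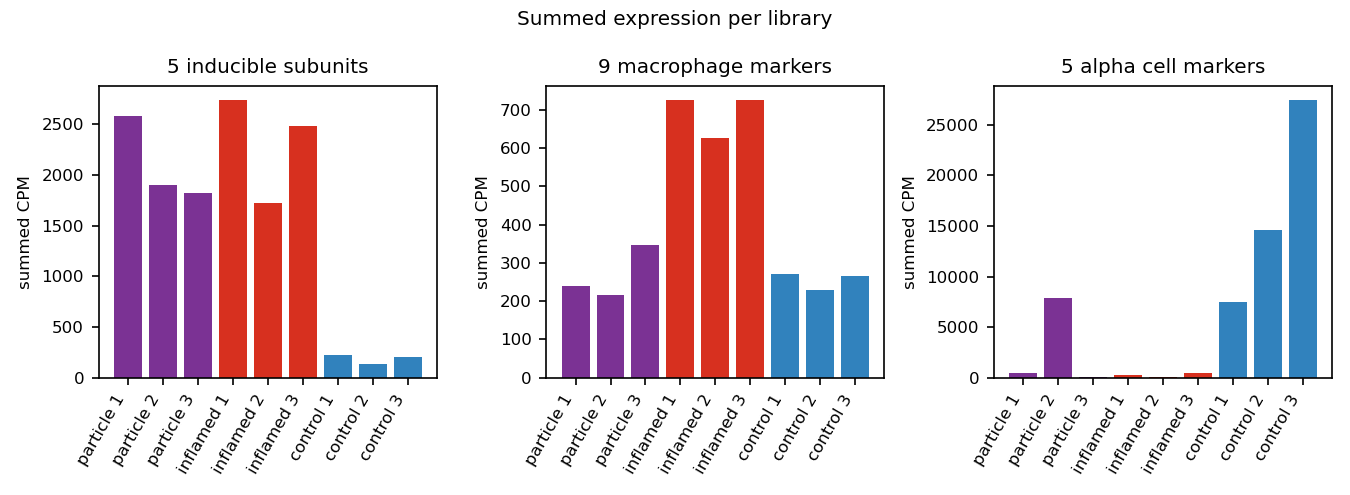
Summed CPM in each library of the 5 inducible subunits, of 9 macrophage markers and of 5 alpha cell markers, for particle, inflamed and control islets. The inducible subunits sum to 1718 CPM or more in all 6 cytokine-treated libraries and to at most 221.5 CPM in control libraries, while the macrophage sum is 216 to 348 CPM in particle and 626 to 726 CPM in inflamed islets.

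Among the constitutive subunits, activators and Pomp, 26 of 34 had a negative log2 fold change for particle over inflamed, with a median of -0.15, against 0.04 over all genes tested. In 9 of these 34 genes every particle library was below every inflamed library, and in 1 (Psmd6) every particle library was above, while 6.82% and 8.87% of all genes tested did so. The 9 were Psme3, Pomp, Psma6, Psmc1, Psmc3, Psmd3, Psmd4, Psmd8 and Psmd13. Psmd4 was at 141, 148 and 181 CPM in particle islets, against 279, 248 and 286 CPM in inflamed islets (log2 fold change -0.79, SE 0.19, adjusted p = 0.1205). It was called with DESeq2 (adjusted p = 0.00129) and without particle replicate 3 (log2 fold change -0.90, adjusted p = 0.0316). Psmd8 was at 174, 175 and 296 CPM in particle islets, against 346, 301 and 402 CPM in inflamed islets (log2 fold change -0.70, SE 0.24, adjusted p = 0.215), and was called without particle replicate 3 (log2 fold change -0.998, adjusted p = 0.0302). Particle replicate 3 was thus the library closest to the inflamed group for Psmd4 and Psmd8. Psma6 was at 150, 116 and 165 CPM in particle islets, against 185, 228 and 261 CPM in inflamed islets (log2 fold change -0.64, SE 0.22, adjusted p = 0.213), and was called under none of 19 alternatives.

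**Figure D5:**
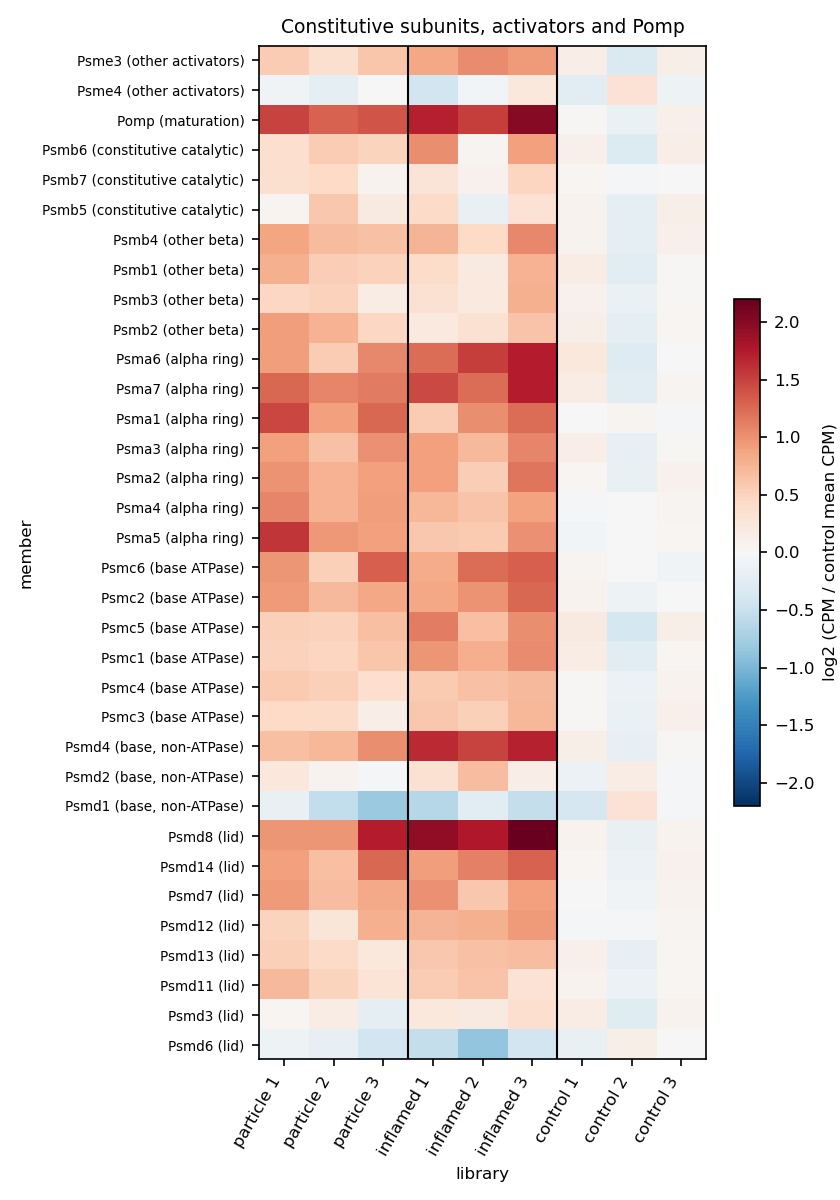
Log2 of CPM over the control mean for the 31 constitutive subunits, Psme3, Psme4 and Pomp (rows, by role) in each library (columns, particle, inflamed and control). Psmd8, Psmd4, Psma6, Psma7 and Pomp are the most raised rows in inflamed libraries, and Psmd6 and Psmd1 are below 0 in all inflamed libraries.

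Particle islets were also compared with control islets, the same control libraries that the inflamed islets were set against. All 5 inducible subunits and all 5 loading genes rose, by 4.61-fold to 39.7-fold, and 15 of 31 constitutive subunits rose while none fell. Across all genes tested 11.4% were called higher and 5.92% lower, or 1961 and 1022 genes. Scaled by library totals, these became 3193 and 597 genes. In 38 of the 44 genes every particle library was above every control library, and in none below, while 22.9% and 20.6% of all genes tested did so. Psmb8 was 19.1-fold higher (log2 4.26, SE 0.33, adjusted p = 9.82e-06), Psmb9 20.8-fold (log2 4.38, SE 0.32, adjusted p = 6.36e-06) and Tap1 39.7-fold (log2 5.31, SE 0.34, adjusted p = 2.86e-06). Psmb10, Psme1, Psme2, Tap2, Tapbp, Tapbpl and Erap1 rose by 3.66, 2.95, 3.10, 3.07, 2.57, 3.59 and 2.204 on the log2 scale. The medians were 3.66 for the inducible subunits, 3.07 for the loading genes, 0.62 for the constitutive subunits and 0.05 for all genes. The ratios of Psmb8 over Psmb5, Psmb9 over Psmb6 and Psmb10 over Psmb7 were 15.9, 15.1 and 10.1 times those of control islets, with an exact two-sided permutation p of 0.1 for each pair (0.15 adjusted).

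In the constitutive proteasome of particle islets all 7 alpha subunits were called higher. So were 2 of 6 base ATPases and 3 of 8 lid subunits, but none of Psmb5, Psmb6 and Psmb7. Every particle library was nonetheless above every control library for all 6 ATPases, 6 of 8 lid subunits and 2 of these 3 active-site subunits. Of all genes tested 22.9% did so. The roles were not tested against each other. Psma1 was at 222, 149 and 192 CPM in particle islets, against 79.0, 83.2 and 77.5 CPM in control islets (log2 fold change 1.23, SE 0.22, adjusted p = 0.00442). Psmd8 rose by 1.27 (SE 0.24, adjusted p = 0.00656), Psma5 by 1.18 (adjusted p = 0.00573), Psma7 by 1.16 (adjusted p = 0.00402) and Psmd4 by 0.82 (adjusted p = 0.0145) on the log2 scale. Of the alpha ring, Psma6 lost its call without control replicate 2 or 3 or particle replicate 1 or 3, Psma2 without any 1 control library or particle replicate 1, and Psma3 without control replicate 2 or 3. Their adjusted p-values reached 0.1022 for Psma6, 0.0704 for Psma2 and 0.0653 for Psma3. Psmd4 was not called without control replicate 2 or control replicate 3 (adjusted p of Psmd4 up to 0.073). Pomp was at 190, 167 and 176 CPM in particle islets, against 68.5, 61.4 and 72.9 CPM in control islets (log2 fold change 1.39, SE 0.19, adjusted p = 6.86e-04). The count of 15 constitutive subunits fell to 5 without control replicate 2 and to 6 without control replicate 3, and it was 16 without particle replicate 2. That fewer constitutive subunits were called than for inflamed over control islets is not a test of a difference, which the comparison of particle with inflamed islets gives.

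Other genes of the pathway were read from lists in which 44 of 46 symbols were found and 42 were tested. Regulators of proteasome and class I genes rose most often in inflamed over control islets, with 6 of 8 called. Over all genes tested the share called higher was 20.7%. Irf1, an interferon response factor known to bind the Psmb9 and Tap1 promoter, was at 752 ± 108 CPM in inflamed and 51.9 ± 1.26 CPM in control islets (log2 fold change 3.86, adjusted p = 3.49e-05). Nlrc5, the class I transactivator, averaged 89.4 ± 30.7 CPM in inflamed and 0.524 ± 0.382 CPM in control islets (log2 fold change 7.40, adjusted p = 3.80e-05). Nfe2l1 drives constitutive proteasome genes when proteasomes are inhibited. It averaged 563 ± 129 CPM in inflamed and 469 ± 52.9 CPM in control islets and was not called (edgeR adjusted p = 0.4997). Nfe2l2, on the same list, was called higher, with no overlap of the groups. It averaged 114 ± 18.3 CPM in inflamed and 33.1 ± 1.33 CPM in control islets (log2 fold change 1.79, edgeR adjusted p = 0.00142). In particle islets Irf1 averaged 1109 ± 594 CPM and Nlrc5 92.5 ± 52.1 CPM, and none of the 8 regulators was called against inflamed islets.

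Of 6 partners in class I assembly 3 rose in inflamed over control islets, namely B2m, the light chain (log2 fold change 7.09, adjusted p = 1.50e-06), and the heavy chains H2-K1 (3.31, adjusted p = 3.57e-05) and H2-D1 (3.53, adjusted p = 1.74e-05). The folding factors Calr, Canx and Pdia3 were not called. Among 9 proteasome-bound factors 5 rose, led by Psmf1, a proteasome inhibitor (log2 fold change 1.26), Ubqln1, a shuttle factor (1.14), and Uchl5, a deubiquitinase (1.30). Of 7 assembly chaperones Psmd10 and Psmg4 rose, and of 6 cytosolic and other peptidases Lap3 rose, shares near the 20.7% of all genes tested that were called higher. The germ cell subunit Psma8 and the thymic subunit Psmb11 were too low to test. In particle over control islets 5 of 8 regulators, 3 of 6 class I partners, 4 of 9 bound factors, 3 of 7 chaperones and 1 of 6 peptidases rose, and none fell, against 11.4% higher and 5.92% lower over all genes tested. The share of the peptidases is near that of all genes.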

How the data were processed

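The submitters' processing notes name HTSeq, DESeq2 and GRCm39. No source used here gives their versions, the annotation or the strand setting. The deposited counts are whole numbers per gene, not normalized. The deposited FPKM values equal each count over the gene's length and a constant for the library, and that constant differed from the library total by a factor of 0.837 to 1.16, as found from the values. Columns of untreated islets carry no group word and were matched to the control samples as the set left over, by number.

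The counts of the 9 libraries went into 1 edgeR model (edgeR 4.0.16, R 4.3.3; filterByExpr with a minimum count of 10, TMM factors, robust quasi-likelihood fits), with Benjamini-Hochberg adjustment over all 17276 genes per comparison and calls at 0.05. CPM use TMM-scaled totals. Ratios of FPKM were compared by exact permutation. Alternatives used DESeq2 1.42.0, limma 3.58.1 on log2(FPKM + 1) and log2(FPKM + 0.1), other scalings and filters, a replicate block and the omission of each library. Replicates differed by more than sampling noise (chi-square per degree of freedom 43.4 to 207). The procedure was checked on simulated counts. The 44 genes, the lists and the motifs were chosen with earlier results of these data known. Named by rule are the inducible, loading and active-site genes, Pomp, Psme3 and Psme4, the 8 other constitutive subunits with the smallest adjusted p in inflamed over control islets, the highest and lowest of each role, and up to 3 genes of each pathway list, of which some are not reported here. Other genes were named after their values were seen: Psma1, Psmb1, Psmb3, Psmc4, Psmc5, Psmd2, Psmd3, Psmd7 and Psmd11 to Psmd13. So were Nfe2l1, Nfe2l2, the uncalled class I partners, the cell type markers named singly and the pseudogenes. Promoter sequences are from RefSeq (GRCm38.p6), and gene coordinates are those in the deposited tables (GRCm39, first base 1).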

Additional observations from a re-analysis of the deposited data

How the results depend on the processing

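In all 19 alternatives to each of the comparisons with control, the 5 inducible subunits and the 5 loading genes were called higher. For inflamed over control islets, the 22 constitutive subunits called higher became 15 to 21 when 1 library was left out, 25 when libraries were scaled by their totals and 18 without a count filter. That scaling moved the median log2 fold change of all genes to 0.22 (0.05 with TMM) and that of the constitutive subunits to 0.93 (0.75 with TMM). For particle over control islets the same medians were 0.32 (0.05) and 0.89 (0.62). The 1 constitutive subunit called lower, Psmd6, became 0 under that scaling and with a replicate block, and 0 to 1 when 1 library was left out. For particle over control islets, 15 constitutive subunits became 26 under scaling by totals and 5 to 16 when 1 library was left out. For particle over inflamed islets, 0 constitutive subunits called lower became 1 with DESeq2 and 0 to 2 when 1 library was left out. The log2 change of Psmb9 over Psmb6 for particle over inflamed islets ranged from -0.0424 to 0.37 and that of Psmb10 over Psmb7 from -0.0054 to 0.39 when 1 library was left out, turning negative without particle replicate 1. Psme4 for inflamed over control islets ranged from -0.28 to 0.0924 when 1 library was left out, positive without control replicate 2 (0.0924) or inflamed replicate 1 (0.0804), and was 0.11 under scaling by totals, and was not called in any of these. Apart from the shift that scaling by totals makes by its construction, the cause was not tested. The replicate numbers showed no clear pairing of the libraries. The correlation of deviations from the group means was -0.184 to 0.206 between libraries of the same number. It was over 0.1 in 1 of 9 such pairs. Between libraries of unlike number it ran from -0.249 to 0.245. With 3 libraries per group, whose deviations depend on each other, the check cannot exclude a shared animal or batch. With a replicate block 21 constitutive subunits were called higher and 0 lower in inflamed over control islets, and 15 higher in particle over control islets. Across all genes, particle over control islets gave 1961 higher and 1022 lower, against 887 to 2424 and 224 to 2121 when 1 library was left out and 2345 and 1940 with DESeq2. For particle over inflamed islets, where 0 were called, scaling by totals gave 1 higher and 0 lower. The fit without control replicate 2 gave 0 higher and 1 lower. The other fits that called genes in this comparison stand in the report.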

Other observations

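Psme2b, a protein-coding near copy of Psme2 on chromosome 11, was counted at 189.5, 141 and 140.1 CPM in particle islets, at 302, 189.7 and 217.5 CPM in inflamed islets and at 27.6, 18.4 and 24.7 CPM in control islets. Psma5-ps, a processed pseudogene of Psma5 on chromosome 10, was counted at 6.46 CPM in particle, 5.88 CPM in inflamed and 2.82 CPM in control islets on average. Pseudogenes of Psmb5, Psmb6 and Psmb7 were at or near 0 counts.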
